A study of Homo sapiens with 4 samples.

Results

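The BCL2 family genes described here are 10 members, taken as every row of the gene table whose name equals one of the symbols. They are 10 of 43296 gene names, and they occupy 19 of 61838 gene features. By role they are 3 anti-apoptotic genes (BCL2, BCL2L1, MCL1), the effector BAK1, and 6 BH3-only genes (BID, BCL2L11, BMF, BIK, HRK, PMAIP1). All 10 reached the minimum of 100 counts in the higher library of each line, so none was left out.

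The BCL2 family sets whether a cell commits to death through its mitochondria. Anti-apoptotic members hold the effector proteins BAK1 and BAX in check at the outer mitochondrial membrane. BH3-only proteins are named for the single BCL2 homology motif that they share. They bind the anti-apoptotic members or act on the effectors, which then make the membrane permeable and release cytochrome c to activate caspases. Inhibitors of histone deacetylases (HDAC) and of DNA methyltransferases (DNMT) are known to act on the transcription of several BH3-only genes in tumour cells.

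The cells came from 2 established human lines. H1299 is a lung cancer line (non-small cell), and HCT116 is a colorectal cancer line. Control cells of each line received the solvent DMSO. Treated cells received decitabine (DAC), which inhibits DNMT, at 500 nM for 72 h and SB939, which inhibits HDAC, at 500 nM for 18 h, a combination called DAC+SB. Cells were at passage 5 to 10 per the labels, medium with compound was changed daily, and both lines grew with 10% serum. The 4 combinations were 1 library each of 10x Genomics 5′ single-cell RNA sequencing, in which counts lie near transcription start sites.

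With 1 library per group there is no replicate check and no test. Intervals in parentheses are 95% intervals of counting error only. A gene is called higher or lower at a ratio of at least 2 between the DAC+SB and the DMSO library of a line. The 15289 cells gave between 38927267 and 64524196 gene and transposable element (TE) counts per library. The treated HCT116 library stood apart in depth, with a median of 8449 counts per cell against 15784.5 to 17369.5 in the other 3. It also had the highest median mitochondrial share (18.6%, against 8.33% to 15.8%). Cell barcodes seen in more than 1 library numbered 131 of 15158. H1299 markers summed to 3623 (control) and 1587 (treated) CPM in H1299, and to 350 and 408 CPM in HCT116. CPM stands for counts scaled to a total of 1000000 gene and TE counts in the library. HCT116 markers summed to 138 and 88.5 CPM in the HCT116 libraries, and to 0.387 and 12.8 in the H1299 libraries. Each line thus had the higher sum of its own markers, although CDH17 was at 0 in control HCT116 and NNMT, an H1299 marker, gave only 7 and 6 counts in the H1299 libraries. Single HCT116 markers went the other way at low levels. TSPAN8 was at 0.0930 and 0.304 CPM in control and treated H1299, against 0.0160 and 0.0771 in HCT116. In the treated libraries LGALS4 was at 1.60 CPM in H1299 and 1.08 in HCT116, and CDH17 at 0.529 and 0.385.

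The treatment acts on DNA methylation, which in human cells lies mostly on CG dinucleotides, and the assay counts RNA near its start. The sequence around the start site is therefore shown for the members called in HCT116 that have a window, and for PMAIP1, which lay just under 2-fold. RefSeq promoter windows (250 bases before to 50 after a start, build GRCh38.p14, read on the gene's strand) matched 8 of the 10 members (not BIK and MCL1), with 14 windows in all. In the windows below CG is in capitals.

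BMF window 1, chr15:40108830-40109129, minus strand: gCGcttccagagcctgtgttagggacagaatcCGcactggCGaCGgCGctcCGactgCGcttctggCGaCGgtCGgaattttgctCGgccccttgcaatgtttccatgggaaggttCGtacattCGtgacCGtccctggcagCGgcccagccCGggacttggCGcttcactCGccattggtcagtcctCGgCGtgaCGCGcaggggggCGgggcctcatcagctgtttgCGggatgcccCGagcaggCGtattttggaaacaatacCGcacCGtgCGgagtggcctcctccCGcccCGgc
BMF window 2, chr15:40106917-40107216, minus strand: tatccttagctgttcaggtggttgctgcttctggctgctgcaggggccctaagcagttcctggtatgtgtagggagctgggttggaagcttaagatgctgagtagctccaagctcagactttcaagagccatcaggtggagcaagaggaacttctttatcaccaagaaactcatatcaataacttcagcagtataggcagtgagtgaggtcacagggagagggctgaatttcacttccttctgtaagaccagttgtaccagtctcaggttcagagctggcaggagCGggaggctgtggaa
BCL2L11, chr2:111120664-111120963, plus strand: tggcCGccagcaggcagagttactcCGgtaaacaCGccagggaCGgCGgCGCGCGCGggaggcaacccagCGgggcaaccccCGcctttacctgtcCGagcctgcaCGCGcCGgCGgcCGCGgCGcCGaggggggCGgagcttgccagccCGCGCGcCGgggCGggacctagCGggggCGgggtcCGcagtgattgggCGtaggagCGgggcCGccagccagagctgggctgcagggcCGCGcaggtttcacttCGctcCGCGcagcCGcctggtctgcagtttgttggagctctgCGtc
PMAIP1, chr18:59899746-59900045, plus strand: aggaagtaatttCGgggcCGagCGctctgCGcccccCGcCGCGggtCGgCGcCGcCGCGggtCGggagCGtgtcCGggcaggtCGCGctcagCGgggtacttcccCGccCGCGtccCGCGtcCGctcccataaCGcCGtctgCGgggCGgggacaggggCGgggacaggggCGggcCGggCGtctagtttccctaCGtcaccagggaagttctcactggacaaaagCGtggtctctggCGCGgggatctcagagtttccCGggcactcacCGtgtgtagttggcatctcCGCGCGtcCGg
BID window 1, chr22:17774420-17774719, minus strand: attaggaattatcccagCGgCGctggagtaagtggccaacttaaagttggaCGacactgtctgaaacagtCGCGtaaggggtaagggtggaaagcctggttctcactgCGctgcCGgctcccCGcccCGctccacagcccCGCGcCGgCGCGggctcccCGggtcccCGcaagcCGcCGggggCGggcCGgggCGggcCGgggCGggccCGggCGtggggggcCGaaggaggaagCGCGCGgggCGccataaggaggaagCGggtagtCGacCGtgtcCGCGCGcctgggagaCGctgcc
BCL2L1 window 1, chr20:31723914-31724213, minus strand: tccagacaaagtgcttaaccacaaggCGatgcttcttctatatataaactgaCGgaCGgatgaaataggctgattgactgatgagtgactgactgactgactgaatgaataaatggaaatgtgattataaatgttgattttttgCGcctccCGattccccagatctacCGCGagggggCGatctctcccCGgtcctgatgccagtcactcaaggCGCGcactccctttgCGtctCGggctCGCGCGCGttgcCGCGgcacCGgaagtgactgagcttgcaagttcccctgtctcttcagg
BCL2, chr18:63319720-63320019, minus strand: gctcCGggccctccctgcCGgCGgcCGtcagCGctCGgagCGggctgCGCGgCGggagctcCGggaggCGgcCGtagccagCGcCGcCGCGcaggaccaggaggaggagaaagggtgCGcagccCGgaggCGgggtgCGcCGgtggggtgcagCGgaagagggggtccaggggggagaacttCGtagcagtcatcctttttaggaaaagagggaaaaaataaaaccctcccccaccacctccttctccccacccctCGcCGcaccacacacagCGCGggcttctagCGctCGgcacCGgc

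The PMAIP1 window held 42 CG, the BCL2L11 window 39, BID window 1 37, and BMF window 1 and the BCL2 window 31 each. BCL2L1 window 1 held 20 CG and BMF window 2 held 1. Window 1 of BID and of BCL2L1 is shown as the first one listed. The other BID windows held 29, 6, 33 and 31 CG with 2, 0, 4 and 3 copies of GGGCGG, and BCL2L1 window 2 held 16 CG with 1 copy. The median over all 35116 windows was 14, with quartiles of 4 and 28. The members that were higher after treatment and those that were lower therefore both included CG-rich windows. HRK and BAK1, which were called in neither line, had windows with 25 and 7 CG. BIK has no window here, and a relation of CG content to the ratios was not tested. The hexamer GGGCGG, searched on both strands and itself holding a CG, was found in 4 copies in the PMAIP1 window and in BID window 1, in 3 in BCL2L11, in 2 in BMF window 1 and in none of BMF window 2, BCL2L1 window 1 or the BCL2 window. It occurred in 45.0% of all windows. Methylation was not measured in these data, and the deposited features do not say which start a count came from.

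The BH3-only genes BIK and BMF were the members with the highest ratios in both lines. In HCT116 another BH3-only gene, BCL2L11, was also called higher, while BID, BCL2L1 and BCL2 were called lower. In H1299, 2 of 10 members were called higher, where 18.3% of all 14610 genes tested were, and 0 of 10 lower, where 7.34% of genes were. In HCT116, 3 of 10 were called higher (16.2% of 13539 genes) and 3 of 10 lower (20.0% of genes). BIK and BMF, 2 of 10, were higher in both lines (8.30% of the 12644 genes tested in both), and 0 of 10 were lower in both (5.20%). With 10 genes, counts of this size are not far from the background and are not a result about the members. All 3 anti-apoptotic members lay below DMSO in both lines with intervals below 0, as did 46.5% of all genes tested in H1299 and 52.8% in HCT116. Of the 6 BH3-only members 4 lay above DMSO in each line with intervals above 0, as did 39.0% of all genes in H1299 and 34.5% in HCT116. At this depth small differences clear 0, so these counts describe the members and do not set them apart from other genes. The median log2 ratio was -0.61 over the anti-apoptotic and 0.24 over the BH3-only members in H1299, where it was -0.07 over all genes. In HCT116 the medians were -1.24 and 1.27, and -0.23 over all genes.

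**Figure D1:**
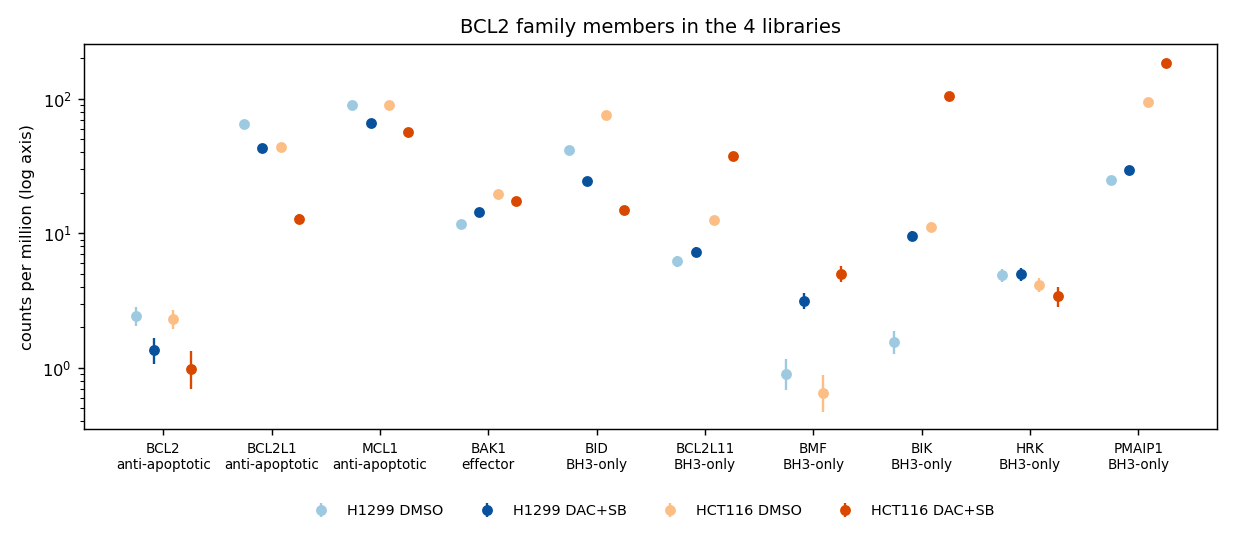
CPM (log axis) of each of the 10 members in the 4 libraries, grouped by role. Points are library values, with 1 library per group, and bars are Poisson 95% intervals of counting error. BIK spans 1.55 to 105 CPM, and the treated HCT116 library is the highest of the 4 for BCL2L11, BMF, BIK and PMAIP1 and the lowest for BCL2, BCL2L1, MCL1, BID and HRK.

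The anti-apoptotic genes are taken first. BCL2L1 (chromosome 20, 31664452 to 31723989, minus strand, on GRCh38 with GENCODE v29) encodes BCL-XL, which holds BAK1 and BAX inactive. Its level was 65.5 CPM in control H1299, 42.8 in treated H1299, 43.7 in control HCT116 and 12.7 in treated HCT116. The treated HCT116 library was lowest. The HCT116 levels include a numbered feature listed only in that line, and without it they were 30.4 (control) and 10.9 (treated) CPM. The log2 ratio was -0.61 (-0.68 to -0.54) in H1299 and -1.78 (-1.92 to -1.64) in HCT116, where only 5.49% of the genes tested had a lower ratio. The difference between the lines, H1299 minus HCT116, was 1.17 (1.01 to 1.32) on the log2 scale. It includes the numbered feature, without which the HCT116 log2 ratio was -1.48 (-1.63 to -1.32). Whether H1299 counts of that feature lie in the part with no number is not known. The HCT116 values without the feature are therefore not corrected values.

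MCL1 (chromosome 1, 150574551 to 150579738) encodes a short-lived anti-apoptotic protein that binds BIM and NOXA. It was at 90.3 CPM in control H1299 and 66.1 in treated H1299, and at 90.1 CPM in control HCT116 and 56.6 in treated HCT116. Both treated libraries were lower. The log2 ratio was -0.45 (-0.51 to -0.39) in H1299 and -0.67 (-0.74 to -0.60) in HCT116. Relative to library totals MCL1 thus passed 2-fold in neither line. Per 1000 HCT116 cells it went from 1543 to 509 counts, a log2 ratio of -1.60, which is past 2-fold lower. The H1299 values and the comparison of levels between the lines are affected by listing. A numbered feature of MCL1 with 670 counts in treated H1299 is missing from the list of the control library. Without it the H1299 log2 ratio was -0.71. Whether the control counts of that feature lie in the part with no number is not known. If they do, -0.71 leaves the feature out on 1 side only, so it is not a corrected value. In HCT116 the same feature went from 1955 to 781 counts. Over the part with no number the control levels were 90.3 CPM in H1299 and 58.9 in HCT116, a comparison under the same limit.

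BCL2 itself (chromosome 18, 63123346 to 63320128), the founding anti-apoptotic gene, gave few counts. They were 156 in control H1299, 84 in treated H1299, 144 in control HCT116 and 38 in treated HCT116. That corresponds to 2.42, 1.35, 2.30 and 0.976 CPM, and the 2 DMSO libraries had overlapping intervals. The log2 ratio was -0.85 (-1.25 to -0.45) in H1299 and -1.24 (-1.79 to -0.71) in HCT116. The HCT116 interval reaches across the 2-fold line, so the call is not settled by this depth. The difference between the lines was 0.39 (-0.25 to 1.03).

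BAK1 (chromosome 6, 33572547 to 33580293) encodes an effector that forms the pore in the outer mitochondrial membrane. Its level was 11.7 CPM in control H1299, 14.3 in treated H1299, 19.6 in control HCT116 and 17.4 in treated HCT116. The HCT116 libraries lay above the H1299 libraries under both treatments, and the HCT116 intervals overlapped each other (18.5 to 20.7 and 16.1 to 18.8). The log2 ratio was 0.29 (0.15 to 0.43) in H1299 and -0.17 (-0.30 to -0.03) in HCT116, neither past 2-fold. Per 1000 HCT116 cells BAK1 went from 335 to 157 counts, a log2 ratio of -1.10, which is past 2-fold lower.

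Among the BH3-only genes, BIK (chromosome 22, 43110748 to 43129712, plus strand) encodes a protein of the endoplasmic reticulum and mitochondria that binds BCL2 and BCL-XL. Its counts were 100 in control H1299, 597 in treated H1299, 702 in control HCT116 and 4088 in treated HCT116. On the CPM scale these were 1.55, 9.56, 11.2 and 105. The 4 libraries were fully ordered, and treated H1299 came up to nearly the level of untreated HCT116. BIK was 6.17-fold (4.99 to 7.70) higher with DAC+SB in H1299 and 9.37-fold (8.65 to 10.2) higher in HCT116, or 2.63 and 3.23 on the log2 scale. It passed 4-fold in both lines, as did 11.0% and 9.63% of all genes tested in H1299 and HCT116. Within a treatment BIK stayed far higher in HCT116, by 7.23-fold under DMSO and 11.0-fold under DAC+SB.

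BMF (chromosome 15, 40087890 to 40108892, minus strand) encodes a BH3-only protein that is held on the actin cytoskeleton through dynein light chain. It gave 58 counts in control H1299, 196 in treated H1299, 41 in control HCT116 and 195 in treated HCT116. The corresponding levels were 0.899, 3.14, 0.655 and 5.01 CPM. The DMSO libraries had overlapping intervals and both treated libraries lay above them. BMF was 3.49-fold (2.59 to 4.77) higher with DAC+SB in H1299 and 7.65-fold (5.44 to 11.0) higher in HCT116. Of the 195 counts in treated HCT116, 28 came from a numbered feature not listed in the other 3 libraries. Without it the HCT116 log2 ratio was 2.71 in place of 2.94.

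BCL2L11 (chromosome 2, 111119378 to 111168447, plus strand) encodes BIM, which binds every anti-apoptotic member and can act on BAX and BAK1 directly. It was at 6.18 CPM in control H1299, 7.27 in treated H1299, 12.6 in control HCT116 and 37.6 in treated HCT116. The H1299 intervals overlapped (5.59 to 6.82 and 6.62 to 7.97), whereas the treated HCT116 library stood clear of the other 3. The ratio was 1.18 (1.03 to 1.35) in H1299 and 2.98 (2.73 to 3.25) in HCT116. On the log2 scale the line difference, H1299 minus HCT116, was -1.34 (-1.57 to -1.11). Per 1000 HCT116 cells BCL2L11 went from 216 to 338 counts, a log2 ratio of 0.64, which is under 2-fold.

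PMAIP1 (chromosome 18, 59899948 to 59904306, plus strand) encodes NOXA, which binds MCL1 and whose gene is a known target of ATF4. It was at 24.8 CPM in control H1299, 29.4 in treated H1299, 95.1 in control HCT116 and 186 in treated HCT116. Both HCT116 libraries were above both H1299 libraries, and in HCT116 the treated library was the higher. The ratio was 1.18 (1.11 to 1.27) in H1299 and 1.95 (1.88 to 2.02) in HCT116. The HCT116 value is just under 2-fold and was not called, and its interval crosses that line. Relative to the median of all HCT116 genes it was past 2-fold, at 1.20 on the log2 scale. With gene counts alone as the denominator it was so too, at 1.04. Per 1000 HCT116 cells PMAIP1 went from 1629 to 1670 counts, a log2 ratio of 0.04, so the HCT116 value depends on the scaling.

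BID (chromosome 22, 17734138 to 17774770, minus strand) encodes the protein that caspase 8 cleaves to link death receptors to mitochondria. It was the only BH3-only member below DMSO with its whole interval, and was so in both lines. Its level was 41.8 CPM in control H1299, 24.6 in treated H1299, 75.7 in control HCT116 and 14.8 in treated HCT116. HCT116 had more BID than H1299 without treatment (1.81-fold) and less with it, when H1299 was 1.66-fold higher. The log2 ratio was -0.76 (-0.86 to -0.67) in H1299 and -2.35 (-2.48 to -2.23) in HCT116. BID was the only member at least 4-fold lower in either line, a call made for 3.69% of all HCT116 genes tested and for 0.349% of H1299 genes.

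HRK (chromosome 12, 116856144 to 116881441, minus strand) encodes Harakiri, a BH3-only protein best known in neurons. Its level was 4.87 CPM in control H1299, 4.95 in treated H1299, 4.15 in control HCT116 and 3.39 in treated HCT116. Within each line the intervals of the DMSO and DAC+SB libraries overlapped. The log2 ratio was 0.02 (-0.21 to 0.26) in H1299 and -0.29 (-0.61 to 0.02) in HCT116. Relative to library totals no difference was detectable at this depth. Per 1000 HCT116 cells HRK went from 71.1 to 30.5 counts, a log2 ratio of -1.22, so the HCT116 value depends on the scaling.

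**Figure D2:**
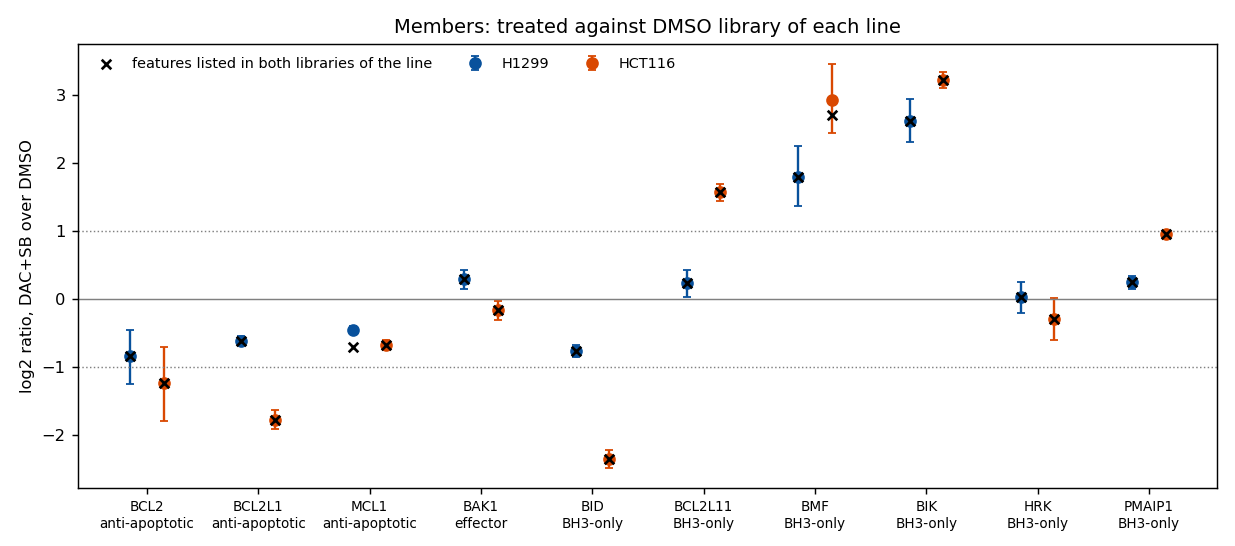
Log2 ratio of DAC+SB over DMSO for each member in H1299 and HCT116, with exact conditional 95% intervals of counting error. Dotted lines mark 2-fold, and crosses are the values over features listed in both libraries of the line. BIK and BMF lie above the upper dotted line in both lines, BID, BCL2L1 and BCL2 lie below the lower one in HCT116 only, and the cross departs visibly from the point for MCL1 in H1299 and BMF in HCT116.

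The BH3-only and the anti-apoptotic members were then compared as sums, which leave out the effector BAK1 and family genes outside the members. The pro-apoptotic relative BAD was at 86.1 and 80.8 CPM in control and treated H1299, and at 88.9 and 68.9 in HCT116. BBC3 was at 4.06 and 5.11 CPM in H1299 and at 15.0 and 5.37 in HCT116. The sums and their balance thus depend on which genes are counted as members. A sum follows its most abundant members, and counts of different genes need not reflect protein. For these reasons the sums are compared by their change within a line, and that change is then set beside the other line. Counts of BH3-only per anti-apoptotic count, given below, are ratios of RNA counts and not a balance of proteins. The anti-apoptotic sum was 158 CPM in control H1299, 110 in treated H1299, 136 in control HCT116 and 70.3 in treated HCT116. The BH3-only sum was 80.1, 78.9, 199 and 351 CPM in the same order. In H1299 the anti-apoptotic sum was thus lower with treatment while the BH3-only sum hardly differed. In HCT116 the sums differed in opposite directions relative to the library totals, but not per cell. Per 1000 HCT116 cells the BH3-only sum went from 3415 to 3161 counts and the anti-apoptotic sum from 2332 to 632, so both were lower with treatment on that scale.

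The log2 ratio of the anti-apoptotic sum was -0.52 (-0.56 to -0.48) in H1299 and -0.95 (-1.02 to -0.89) in HCT116. That of the BH3-only sum was -0.02 (-0.08 to 0.04) in H1299, opposite in sign to the median of its members, and 0.82 (0.78 to 0.85) in HCT116. BH3-only minus anti-apoptotic was therefore 0.50 (0.43 to 0.57) in H1299 and 1.77 (1.70 to 1.84) in HCT116. As counts of BH3-only per count of anti-apoptotic members, the balance went from 0.506 to 0.715 in H1299 and from 1.46 to 5.00 in HCT116. The difference between the lines, H1299 minus HCT116, was -1.27 (-1.37 to -1.17) and has no replicate check.

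Which member leads each sum mattered. BID made up 52.2% of the BH3-only counts in control H1299, and PMAIP1 led in the other 3 libraries with 37.2% to 52.8%. Without BID the BH3-only sum had a log2 ratio of 0.50 in H1299 and 1.44 in HCT116, and the difference from the anti-apoptotic sum was 1.02 and 2.40. Without BIK that difference was 0.34 and 1.34. Leaving out any 1 of the 9 summed members kept it between 0.34 and 1.02 in H1299 and between 1.34 and 2.56 in HCT116. The numbered MCL1 feature missing from the control list also bears on the H1299 value, which was 0.65 without it. The limit given for the MCL1 ratio holds for this value too.

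**Figure D3:**
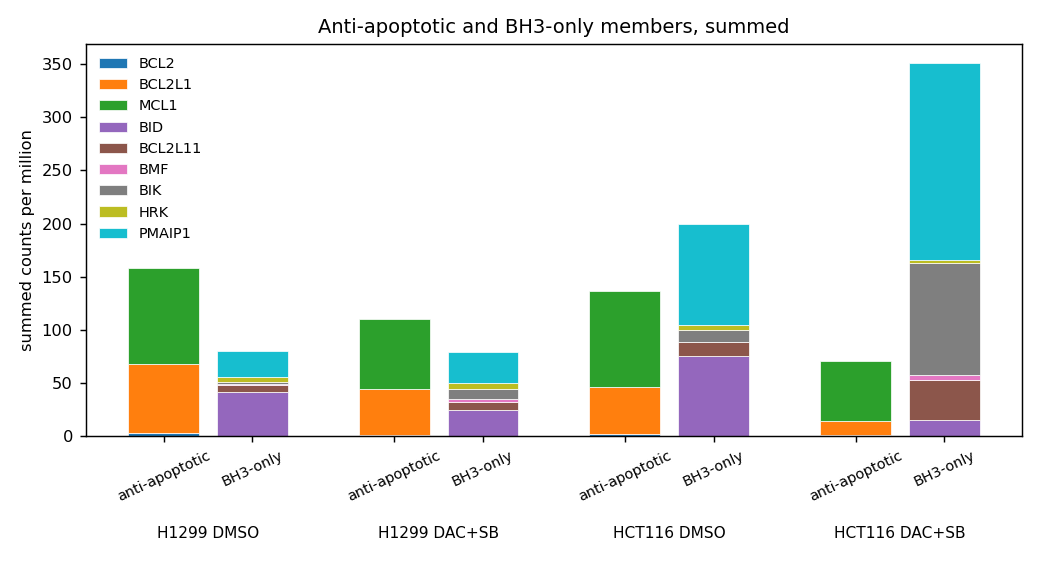
Summed CPM of the 3 anti-apoptotic and the 6 BH3-only members in each library, with each member as a coloured part of the bar and the axis starting at 0. The BH3-only bar is 80.1 and 78.9 CPM in the H1299 libraries and 199 and 351 in the HCT116 libraries. In HCT116 the BIK, PMAIP1 and BCL2L11 parts grow with treatment and the BID part shrinks.

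The same pattern was examined cell by cell, after each cell was thinned to 3300 counts so that depth was equal. This left out 402 treated HCT116 cells and no other cell. A PMAIP1 count was found in 23.4% (22.0 to 24.8) of control HCT116 cells and 39.5% (38.0 to 41.0) of treated HCT116 cells. In H1299 the shares were 7.71% and 8.83%, with overlapping intervals. BIK was found in 3.64% (3.05 to 4.29) of control HCT116 and 22.9% (21.6 to 24.3) of treated HCT116 cells, and in 0.587% and 3.22% of H1299 cells. In treated HCT116 the thinned BIK counts came from 899 cells.

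BID went the other way, from 22.1% (20.7 to 23.4) to 4.33% (3.72 to 5.02) of HCT116 cells and from 12.4% to 6.28% of H1299 cells. BCL2L1 went from 12.1% to 3.62% of HCT116 cells and from 18.1% to 12.9% of H1299 cells. Cells with more BH3-only than anti-apoptotic counts made up 34.0% (32.5 to 35.6) of control HCT116 and 54.3% (52.7 to 55.9) of treated HCT116 cells. In H1299 they were 15.0% (13.9 to 16.2) and 15.4% (14.2 to 16.6). The opposite excess, of anti-apoptotic counts, went from 31.9% to 24.8% of H1299 cells and from 21.1% to 8.15% of HCT116 cells. After thinning, a count of any member was found in 53.9% of control and 47.6% of treated H1299 cells. In HCT116 such cells made up 65.8% and 69.2%. The other cells could show neither excess. The highest mean of a member was 0.626 counts per cell, for PMAIP1 in treated HCT116. The shares with an excess therefore rest on few counts per cell and do not measure a balance within each cell.

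Without thinning, the excess of BH3-only counts was seen in 20.7% of control and 28.1% of treated H1299 cells and in 57.0% and 71.1% of HCT116 cells. The H1299 shares thus differed without thinning and had overlapping intervals with it. In the order control H1299, treated H1299, control HCT116, treated HCT116, a BCL2L1 count was found in 58.6%, 43.7%, 43.6% and 9.73% of cells. A BIK count was seen in 2.46%, 13.0%, 14.7% and 42.3% of cells, and a BID count in 44.0%, 27.5%, 63.4% and 11.3%. The unthinned PMAIP1 shares were 30.0%, 30.8%, 66.6% and 62.2%, so for PMAIP1 in HCT116 the shares reverse their order when the lower depth of the treated cells is not equalised. The unthinned PMAIP1 shares go against its CPM, while its counts per 1000 HCT116 cells were nearly level, at 1629 and 1670. Less RNA per cell and shallower sequencing cannot be told apart here, so no order is read from these shares. No cell type known to lack these genes was sampled, so how much free RNA added to these shares was not measured.

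**Figure D4:**
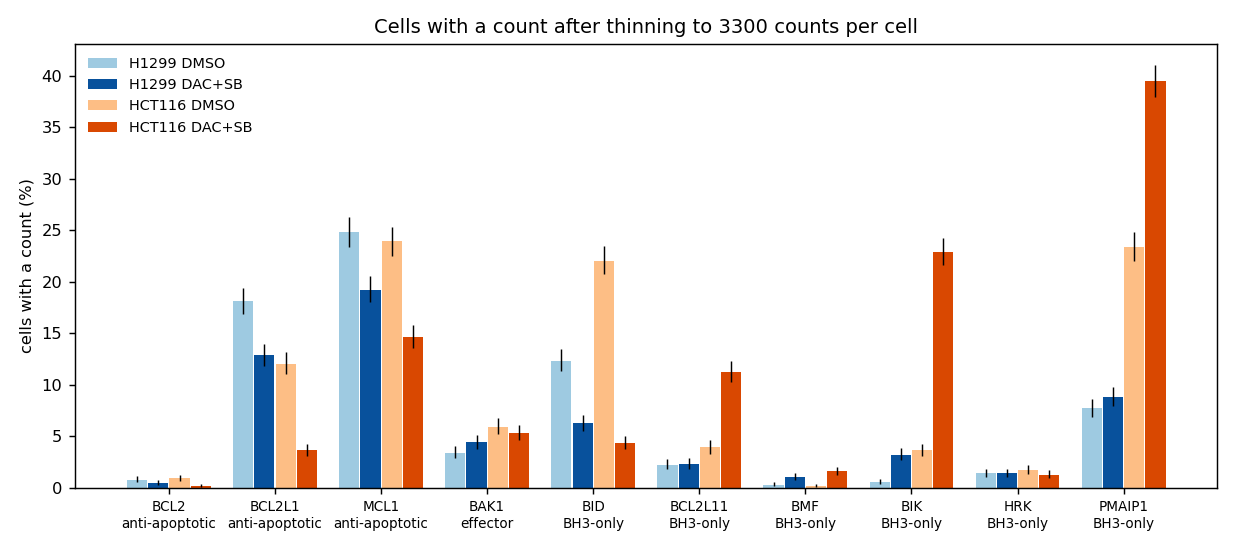
Percent of cells with at least 1 count of each member after thinning to 3300 counts per cell, in the 4 libraries, with Clopper-Pearson 95% intervals and the axis starting at 0. In HCT116 the treated bar is the higher for PMAIP1 (39.5% against 23.4%), BIK and BCL2L11 and the lower for BID, MCL1 and BCL2L1.

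The deposited table splits most members into a part with no number and a numbered feature, and what the number stands for is not stated in the labels. For BIK and BMF all parts listed in both libraries of a line were higher with treatment, with log2 ratios from 1.80 to 3.43. BID differed between its parts in H1299, where the numbered feature had a log2 ratio of -1.06 (-1.18 to -0.95) and the rest -0.10 (-0.26 to 0.07). The numbered share of BID counts thus went from 75.8% (74.2 to 77.4) to 61.6% (59.2 to 64.1). In HCT116 both parts of BID were lower, at -2.47 and -1.90. The numbered feature of BCL2L1 was listed only in HCT116, with 834 control and 70 treated counts. Its log2 ratio was -2.89 (-3.26 to -2.54), against -1.48 (-1.63 to -1.32) for the rest. HRK, with no detectable difference as a whole, had its numbered feature at 0.43 (0.08 to 0.77) and the rest at -0.33 (-0.65 to -0.01) in H1299. In HCT116 these parts were at 0.13 (-0.27 to 0.54) and -0.89 (-1.41 to -0.38). BCL2L1, BCL2L11, BMF, BAK1 and BCL2 overlap genes annotated on the opposite strand. The labels do not state whether the counting used strand, so part of their counts could belong to those neighbours.

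Scaling to cells in place of library totals gave another view, because treated HCT116 cells held fewer counts. Per 1000 cells, BIK went from 192 to 945 counts and BCL2L11 from 216 to 338 in HCT116, while PMAIP1 went from 1629 to 1670. BID went from 1296 to 133, BCL2L1 from 749 to 115 and MCL1 from 1543 to 509 counts per 1000 HCT116 cells. On this scale 2 members were at least 2-fold higher in HCT116 and 6 at least 2-fold lower. Per cell, 9.90% of all HCT116 genes tested passed the 2-fold threshold upward and 56.7% passed it downward, so the members' 6 of 10 is near that background. BCL2L11, at a log2 ratio of 0.64 per cell, was no longer called higher. BAK1, HRK and MCL1 were past 2-fold lower per cell and not relative to library totals. The median log2 ratio of all HCT116 genes tested was -1.16. Less RNA per cell and shallower sequencing of that library cannot be told apart here. In H1299 the counts per cell gave the same 2 higher and 0 lower, beside 17.0% and 9.79% of all genes on that scale.

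High-mitochondrial cells were compared with the rest of each library, since mitochondrial share moved with the treated HCT116 library. Over counts without mitochondrial genes, BCL2L11 was at 60.6 CPM in the 1086 treated HCT116 cells above 25% mitochondrial counts and 43.8 CPM in the other 3241, a log2 ratio of 0.47 (0.27 to 0.67). PMAIP1 was at 251 and 223 CPM, BIK at 132 and 128, and the anti-apoptotic sum at 85.4 and 86.0 in the same cells. The BH3-only sum was at 472 and 424 CPM there, a log2 ratio of 0.16 (0.09 to 0.22). In the other 3 libraries that sum had log2 ratios of -0.12 to -0.06, with intervals that include 0. PMAIP1 was lower in the high-mitochondrial cells of control HCT116, at 103 against 116 CPM, a log2 ratio of -0.17 (-0.31 to -0.03). In control HCT116 the anti-apoptotic sum was higher in the high-mitochondrial cells, at 198 against 162 CPM, a log2 ratio of 0.29 (0.19 to 0.39). In treated H1299 the same sum was at 148 and 121 CPM, a log2 ratio of 0.29 (0.02 to 0.55). The median depth of the treated HCT116 cells was 4214.5 and 9810 counts. Without all cells above 25%, the BH3-only minus anti-apoptotic difference was 0.50 in H1299 and 1.72 in HCT116, close to the values over all cells.

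Beyond the 10 members, 73 genes of 7 lists cover other BCL2 relatives, caspases, inhibitors of apoptosis, death receptors, protein partners, transcriptional regulators, and genes of stress and cell cycle arrest. Of the 63 tested in H1299, 4 were at least 2-fold higher and 8 lower. Of the 64 tested in HCT116, 2 were higher and 21 lower. These genes were chosen with results of these data known. The lower share was 12.7% in H1299 and 32.8% in HCT116, beside 7.34% and 20.0% of all genes. The higher share was 6.35% and 3.13%, beside 18.3% and 16.2% of all genes. The median log2 ratio was -0.09 in H1299 and -0.31 in HCT116, beside -0.07 and -0.23 over all genes.

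Of 12 other BCL2 relatives 8 were tested in each line. HCT116 had 5 lower, beside 20.0% of all genes, and H1299 had 1, beside 7.34%. None of the 8 was higher, beside 16.2% and 18.3% of all genes. BCL2A1, BCL2L10, BCL2L14 and BCL2L15 had too few counts to test. From control to treated H1299, BCL2A1 went from 1 to 30 counts, BCL2L10 from 0 to 57 and BCL2L14 from 1 to 27. In HCT116 BCL2A1, an anti-apoptotic gene, went from 3 to 17. BCL2L2, the anti-apoptotic BCL-W gene, had log2 ratios of -1.30 in H1299 and -1.60 in HCT116. Of its counts 69.8% lay under names joined with a neighbouring gene, and with these added it was at -1.16 and -1.54. In HCT116 BCL2L13 was at -1.29, the effector genes BAX and BOK at -1.26 and -1.20, and BBC3, which encodes the BH3-only protein PUMA, was at -1.48. In H1299 these 4 genes were at -0.49, -0.32, -0.96 and 0.33, and BBC3 was at 0.05 over features listed in both libraries. BBC3 and PMAIP1 thus differed in direction in HCT116.

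Of the death receptor genes 6 of 10 tested were lower in HCT116 and 3 of 9 in H1299, beside 20.0% and 7.34% of all genes. None was higher, beside 16.2% and 18.3%. TNFRSF1A, the receptor of tumour necrosis factor, was at 80.1 (control) and 30.4 (treated) CPM in H1299 and at 63.8 and 15.4 in HCT116, with log2 ratios of -1.40 and -2.05. FAS was at -1.11 and -1.61, but at -0.90 in HCT116 over features listed in both libraries, which ends that call. CFLAR, the inhibitor of caspase 8, was at -0.87 and -1.58. TNFRSF25 was at -1.03 and -1.36, but at -0.94 in H1299 with joined names added, which ends that call. TNFRSF21 was at 0.23 and -1.58, and CASP10 was lower in HCT116 (-1.69) and too low to test in H1299. CASP8, whose product cleaves BID, was at 0.78 and -0.09 and passed 2-fold in neither line.

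Of 10 apoptosome and caspase genes, none was called in H1299, where 18.3% of all genes were higher and 7.34% lower. In HCT116 none was higher and 2 were lower, CASP2 at -1.36 and CASP6 at -1.06. There 16.2% of all genes were higher and 20.0% lower. CYCS, the gene of cytochrome c, was at 0.22 and 0.27. Of 7 inhibitors of apoptosis 5 were tested, with 1 lower in H1299 and 2 in HCT116, beside 7.34% and 20.0% of all genes. BIRC3 was lower in H1299 (206 to 62.8 CPM, log2 ratio -1.71) and low in both HCT116 libraries (1.69 and 2.77 CPM). In HCT116 XIAP was at -1.06 and BIRC5, the survivin gene, at -1.11. Among 11 partner and turnover genes (10 tested in HCT116) 1 was called, lower in HCT116, beside 20.0% of all genes. It was HUWE1, which encodes a ubiquitin ligase of MCL1, at -1.20 in HCT116 and -0.34 in H1299. DYNLL1 and DYNLL2, the dynein light chains that hold BIM and BMF, lay between -0.15 and 0.40 in both lines.

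Of 9 transcriptional regulators of the members, H1299 had 1 higher and 2 lower, and HCT116 had 1 higher and 3 lower. TP73 was at -1.45 and -1.99 and E2F1 at -1.84 and -1.13. ATF4, a regulator of PMAIP1, was at -0.98 and -1.32, FOXO1 at 1.05 and 0.54, and JUN at 0.27 and 1.50. Of the stress and arrest genes 11 were tested in H1299 (3 higher, 1 lower) and 12 in HCT116 (1 higher, 2 lower). The shares of all genes just given stand beside these counts too, which are not a result about the list. CDKN1A, the cell cycle inhibitor p21, was higher in both lines, at 1.18 and 1.74, and MDM2 was at -0.55 and -1.16. GDF15 and BTG2 were higher in H1299 (3.79 and 1.38) and AEN lower (-1.86). In HCT116 these were at -0.24, 0.92 and -0.80, and PHLDA3 was lower (-1.52).

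**Figure D5:**
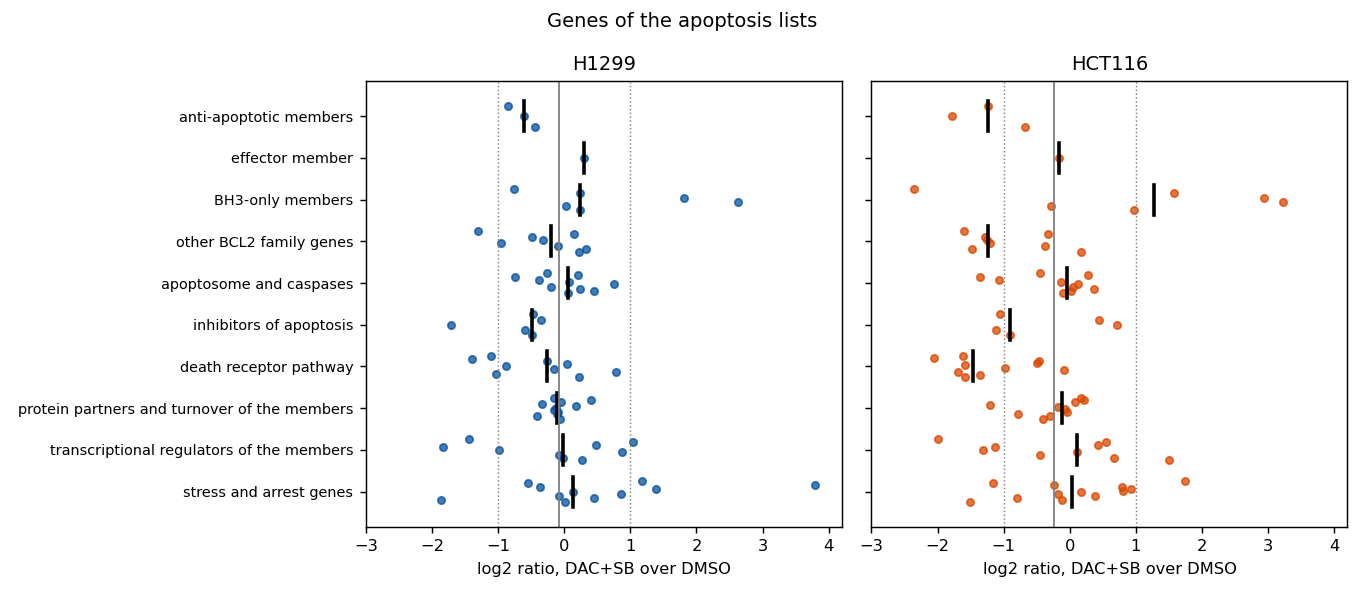
Log2 ratio of DAC+SB over DMSO of every tested gene in the 3 groups of members and the 7 other lists, H1299 at left and HCT116 at right. Points are genes, black ticks are list medians, the solid grey line is the median of all genes tested (-0.07 and -0.23) and dotted lines mark 2-fold. Points of the death receptor list lie mostly below the grey line in HCT116, where the BH3-only median is at 1.27.

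BIK was the member with the largest ratio in both lines. Over the 4 libraries, the genes whose level on the log2(CPM + 1) scale lay nearest to that of BIK, among 12644 candidates, were RAB3A (distance 1.17), CDKN1C (1.19) and TUBA4A (1.34). In the order control and treated H1299, then control and treated HCT116, CDKN1C was at 0.356, 6.49, 12.5 and 70.7 CPM. A distance over 4 libraries is a description only.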

How the data were processed

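The deposited values are whole-number counts per cell, for genes in one table and for TE in another. CASAVA, STAR, GRCh38 and hg38 are named in the submitters' processing notes. The sources used here do not name the counting tool, the annotation, the use of molecular identifiers or the cell filter. Numbered features appear only from 10 counts in a library, so the count of an unlisted feature is unknown. It enters the sums only if its counts lie in the part with no number, which is not known. Cell names carry the library name, and all cells were assigned this way.

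Counts were summed per gene and library and divided by gene plus TE counts. Names joining several genes (2419) stayed out. Genes reaching 100 counts in the higher library of a line were tested for a 2-fold ratio, and 4-fold beside it. No p-value was computed, as each group had 1 library. Ratios carry exact conditional binomial, levels Poisson and shares Clopper-Pearson 95% intervals, and differences of log2 ratios a normal approximation. The intervals take each count as independent and cover counting error only. Where several counts come from 1 molecule, which cannot be told here, the intervals are too narrow even for that. No doublet caller was run. The text names every member, each list gene past 2-fold and the 3 genes nearest to the member with the largest ratio. Some list genes were chosen after their values were seen (BAD, BCL2A1, BCL2L10, BCL2L14, BCL2L15, CASP8, CYCS, DYNLL1, DYNLL2), as were the markers NNMT, CDH17, LGALS4 and TSPAN8. Members and lists were chosen with earlier results of these data known, and 2 list genes are not reported here. Gene positions are those of GENCODE v29, matched by symbol. MARCHF5 and CAVIN1, named for this only, were matched through RefSeq synonyms. The code for the calls was run on simulated Poisson counts with known 4-fold changes, which checks the arithmetic only. The simulation held no variation between cultures and no unlisted features, so it does not bear on those limits. Python 3.11.15, scipy 1.17.1 and pandas 2.3.3 were used.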

Additional observations from a re-analysis of the deposited data

Results flagged for a closer look

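BAK1 was the only member whose log2 ratio lay above 0 in 1 line and below 0 in the other with both counting intervals excluding 0. The H1299 value was 0.29 (0.15 to 0.43) and the HCT116 value -0.17 (-0.30 to -0.03), a difference of 0.46 (0.26 to 0.65). The difference was not tested, since each group was 1 library. Relative to the median of all genes tested in each line, BAK1 was at 0.36 in H1299 and 0.06 in HCT116, so the HCT116 sign turns with that scaling. In counts per cell BAK1 was at 0.19 in H1299 and -1.10 in HCT116. Split by feature, the numbered BAK1 features gave 0.37 (0.17 to 0.57) in H1299 and -0.27 (-0.44 to -0.10) in HCT116. For the feature with no number these values were 0.21 (0.01 to 0.41) and 0.02 (-0.21 to 0.25).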

How the results depend on the processing

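No paired analysis was possible because each group was 1 library and the labels number no replicates. Of the 20 member ratios (10 members in 2 lines), 20 stayed within their counting interval with joined names added, with the other denominator (without mitochondrial and ribosomal protein genes), without the 5% of cells with most counts, without cells above 25% mitochondrial counts, as a mean over cells and without barcodes shared between libraries. With gene counts alone as denominator 18 stayed. Over features listed in both libraries 19 did, and MCL1 in H1299 did not. Relative to the median of all genes 11 of 20 stayed, and with counts per cell 6 of 20. Counts per cell, the ratio to the median of all genes, the omission of shared barcodes and the restriction of the lists to shared features were chosen after seeing the data. Counts per cell raised the members at least 2-fold lower in HCT116 from 3 to 6, while the share of all HCT116 genes that were lower went from 20.0% to 56.7%, and BCL2L11 lost its call at 0.64. At 4-fold, 1 of 10 members was higher in H1299 and 2 in HCT116, beside 11.0% and 9.63% of all genes. Of the 10, 0 were lower in H1299 and 1 in HCT116, beside 0.349% and 3.69% of all genes. At 2-fold 2 and 3 members were higher, and 0 and 3 lower. At 4-fold the list genes went from 4 to 1 higher and from 8 to 0 lower in H1299. In HCT116 they went from 2 to 0 higher and from 21 to 1 lower. The 4-fold shares of all genes just given stand beside these counts too. BH3-only minus anti-apoptotic moved from 0.50 to 0.65 in H1299 over features listed in both libraries. Without the member with most counts on each side it moved to 1.12 in H1299 (without MCL1 and BID) and to 2.42 in HCT116 (without MCL1 and PMAIP1). BCL2 and BMF had the widest ratio intervals in each line, and no interval covers variation between cultures.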

Other observations

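After thinning to 3300 counts, the variance of BIK counts over their mean was 1.60 in treated HCT116 cells and 1.08 in control HCT116 cells. The excess of this value over 1 grows with the mean, which went from 0.0385 to 0.331 counts per cell. Divided by the mean, the excess was 1.95 in control and 1.82 in treated HCT116 cells for BIK, and 0.959 and 1.11 for PMAIP1. The size also depended on the thinning. For PMAIP1 it was 0.606 in control and 1.16 in treated HCT116 cells at 2000 counts, and 0.801 and 1.40 without thinning. For BIK it was 4.08 and 1.77 at 2000 counts and 2.27 and 3.02 without thinning. The direction of the difference in unevenness thus changed with the thinning for BIK. For PMAIP1 the treated value was the higher each time, but no interval was computed. All settings draw on the same libraries, and only thinning to 3300 counts left out treated HCT116 cells (402). At 3300 counts the PMAIP1 variance over mean was 1.70 in treated and 1.29 in control HCT116 cells. Without the highest cell of each these were 1.57 and 1.25. Control HCT116 cells with 2 or more BIK counts numbered only 8 at 3300 counts and 5 at 2000. The highest BIK count in a treated HCT116 cell was 49, in a cell of 19545 counts, and the next was 30.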
